A study of Mus musculus with 6 samples.

Results

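A set of 40 genes of T, B and natural killer (NK) lymphocytes was examined in the prostate of TRAMP mice given OSU-CG5 or vehicle. They comprise the chains and coreceptors of the T cell antigen receptor, costimulatory and checkpoint receptors, signalling proteins, cytokine and homing receptors, cytotoxic granule and NK proteins, lineage transcription factors and B cell genes. The genes were taken by name, and for each the probe set with a single gene symbol and the highest mean over the 6 arrays was read. Of the 40 genes 37 had such a probe set, out of 18193 genes on the array. Lck, Il2rg and Klrb1c were not analysed here.

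Both groups were intact male TRAMP mice of the (C57BL/6 TRAMP x FvB) F1 background, in which the SV40 T antigens are driven by the prostate-directed probasin promoter. The treated group of 3 mice received OSU-CG5 by mouth at 100 mg/kg/day for 4 weeks, from 6 to 10 weeks of age, and the control group of 3 mice received vehicle over the same weeks. Total RNA came from the dorsal and lateral prostate lobes, dissected 2 to 4 h after the final gavage, with 1 Affymetrix array per mouse. Values are log2 signals after RMA, the normalization that the submitters name, so a difference of 1 is a 2-fold difference. All differences are OSU-CG5 minus vehicle.

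T cells recognise antigen through a receptor whose variable chains are held by the CD3 proteins and the zeta chain, with CD4 or CD8 as coreceptor, and the kinases Lck and ZAP-70 carry the signal inward. NK cells and cytotoxic T cells kill targets with perforin and granzymes. B cells signal through CD79A and CD79B, which accompany membrane immunoglobulin. In mouse prostate such cells lie among the epithelium and in the stroma, and in a bulk extract their transcripts are diluted by those of epithelial and stromal cells. Fewer cells of a type and less RNA per cell cannot be told apart in such samples.

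Signals of the lymphocyte genes were low. Only Cd3e, Cd4, Zap70 and Gata3 had a mean of at least log2 6, 33 genes lay below it, and 25 lay below the lowest array median of 5.30. The extracts had the signals of prostate epithelium, with the secretory protein genes Pbsn at 13.7 in vehicle and 13.9 with OSU-CG5 and Msmb at 13.0 and 13.3 (means of 3 arrays). The 10 prostate epithelial genes examined had mean signals of 9.87 to 9.92 on the vehicle arrays and 9.70 to 9.88 on the OSU-CG5 arrays. Of these 10, Pbsn and Msmb were the 2 that read higher with OSU-CG5, and 8 read lower. Pbsn and Msmb were lowest in vehicle replicate 2, at 13.28 and 12.26. Vehicle replicate 2 stood apart: its correlation with other arrays over all probe sets was 0.966 to 0.981, against 0.987 to 0.995 for every other pair, and its 6 seminal vesicle genes had a mean of 7.91 against 3.56 to 5.08 on the other arrays.

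The comparison asked which of these transcripts differed after treatment. Of the 37 genes, 29 read lower with OSU-CG5 and 8 higher, and the median log2 difference was -0.15, against -0.09 over all 18193 genes, of which 65.7% read lower. No lymphocyte gene passed limma's test with Benjamini-Hochberg adjustment over all 45037 probe sets (adjusted p of 0.161 or more), nor did any other probe set (0 of 45037, 0%), while without adjustment 3061 probe sets were lower and 4338 higher at p under 0.05. Among lymphocyte genes, 7 were lower at an unadjusted p under 0.05 (18.9%), where 8.43% of all genes and 6.8% of all probe sets were, and 0 were higher, where 5.4% of genes and 9.63% of probe sets were. Every OSU-CG5 array lay below every vehicle array for 13 of them (35.1%), where that held for 14.2% of all genes and 11.9% of all probe sets. None lay wholly above, where 8.1% of genes and 11.7% of probe sets did. The differences were small: the largest, that of Gzmb, was 1.38-fold.

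The share of genes reading lower varied with signal level. Of the 8566 genes with a mean under log2 6, 79.4% read lower with OSU-CG5 and the median was -0.13, and for the 33 lymphocyte genes in that range the values were 78.8% and -0.12. In the same range 30.3% of lymphocyte genes and 17.8% of all genes lay wholly below vehicle, and 18.2% and 9.85% were lower at an unadjusted p under 0.05. Higher genes were rare throughout this range: 1.21% of all its genes were higher at an unadjusted p under 0.05 and 2.09% lay wholly above vehicle, against 0 of the 33 lymphocyte genes for both in limma, so the absence of higher lymphocyte genes was close to the share among genes of like signal. When the deposited values were normalized again by cyclic loess, 21 of 37 lymphocyte genes (56.8%) read lower, against 58.6% of all genes, and with repeated quantile normalization 23 did (62.2%, against 67.1%). Under both scalings the share reading lower was thus not above that of all genes. Without vehicle replicate 1 it was also 23 of 37 (62.2%, against 65.6%), and without vehicle replicate 2 it was 31 (83.8%, against 60.4%). With repeated quantile normalization 12 lymphocyte genes lay wholly below vehicle (32.4%, against 17% of all genes), and with cyclic loess 7 (18.9%, against 12.2%). At an unadjusted p under 0.05 in limma, 8 and 3 of 37 were lower, against 11.3% and 6.86% of all genes.

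**Figure D1:**
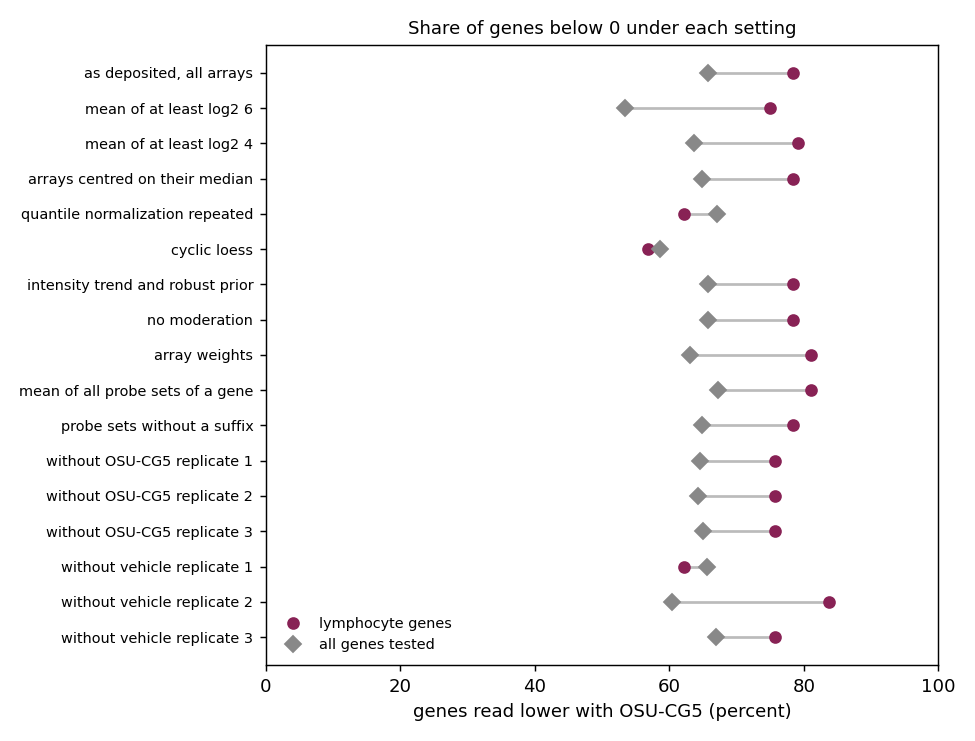
Percentage of genes with a lower mean signal in OSU-CG5 than in vehicle, for the lymphocyte genes (circles) and for all genes tested (diamonds), with the values as deposited and under each alternative. Circles lie to the right of diamonds in most settings (78.4% against 65.7% as deposited) and to the left with cyclic loess, repeated quantile normalization and without vehicle replicate 1.

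The counts rested on single arrays to differing degrees. The 7 genes lower at an unadjusted p under 0.05 were Cd3e, Cd3d, Cd8a, Cd6, Gzmb, Cd22 and Ccr7. The count was 2 of 37 without OSU-CG5 replicate 1, both among the 7, which was below the 6.62% of all genes. With cyclic loess it was 3 of 37, all among the 7, close to the 6.86% of all genes. It was 4 without OSU-CG5 replicate 3 (4.16% of all genes), of which 3 were among the 7 and the other was Pax5. Without vehicle replicate 1 it was 3 of 37, close to the 7.84% of all genes. Of these, 2 were among the 7 and the other was Tbx21. Gzmb was lower at that threshold in 15 of the 15 alternatives that kept it, and Cd3e in 14 of 16. Without vehicle replicate 2 the count was 6, of which 5 were among the 7 and the other was Zap70, against 6.58% of all genes.

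**Figure D2:**
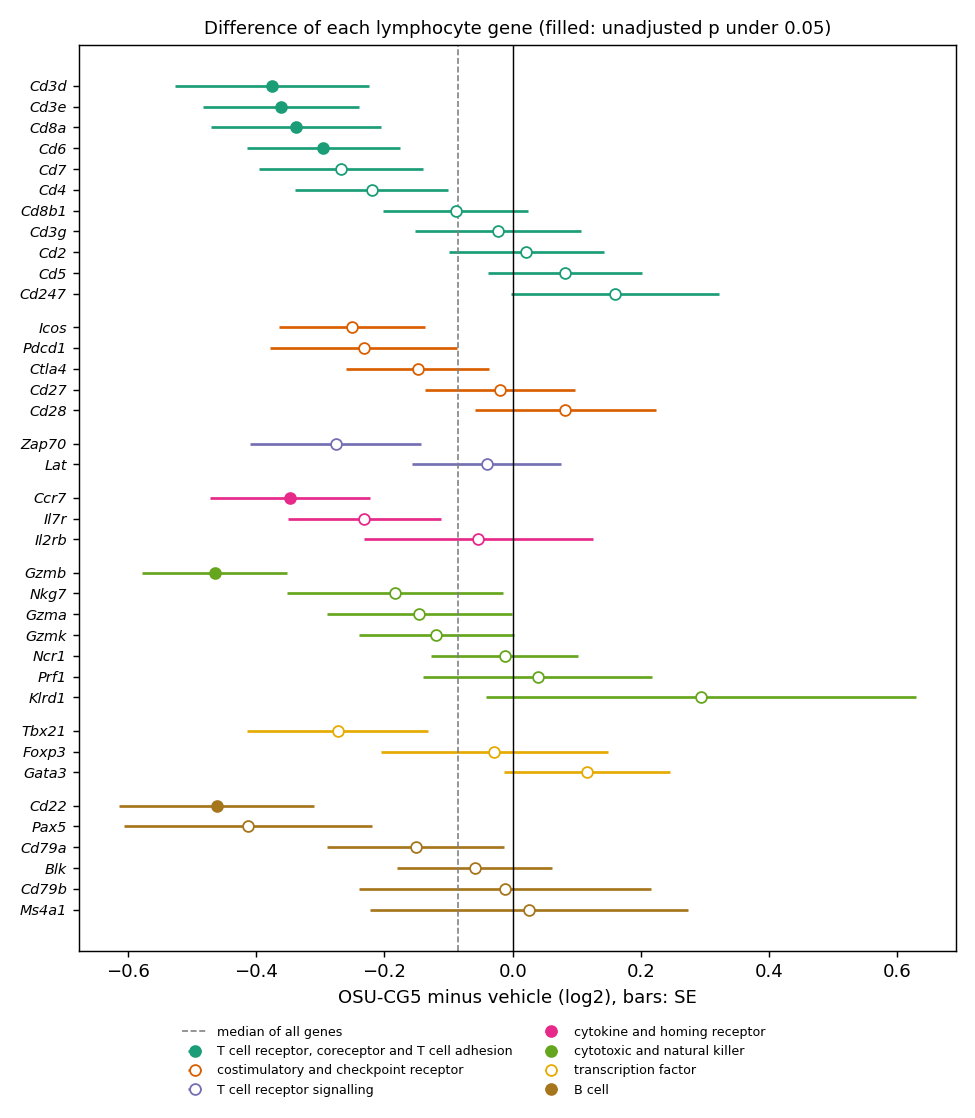
Log2 difference, OSU-CG5 minus vehicle, of each of the 37 measured lymphocyte genes with its moderated standard error, grouped by role; filled points have an unadjusted p under 0.05 and the dashed line is the median of all genes, -0.09. The points reach from -0.47 for Gzmb to 0.29 for Klrd1, and 29 lie left of 0.

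Among the 11 genes of the T cell receptor, its coreceptors and T cell adhesion, 8 read lower (72.7%), with a median of -0.22. That share was 65.7% for all genes and 79.4% for those with a mean under log2 6. Of the 11 genes, 6 lay wholly below vehicle (54.5%, against 14.2% of all genes and 17.8% of those under log2 6). At an unadjusted p under 0.05, 4 were lower (36.4%, against 8.43% of all genes and 9.85% of those under log2 6). Cd3e, which encodes the epsilon chain of the receptor complex, read 6.29, 6.30 and 6.17 in vehicle and 5.80, 6.05 and 5.82 with OSU-CG5. All treated mice lay below all controls, by at least 0.12, and the log2 difference was -0.36 (SE 0.12, 1.28-fold; limma unadjusted p = 0.0169, adjusted p = 0.224). Cd3d, the delta chain, read 5.60, 5.06 and 5.28 in vehicle and 4.95, 4.88 and 4.98 with OSU-CG5. The treated arrays were close together and the vehicle arrays spread, with vehicle replicate 1 highest, and the difference was -0.38 (SE 0.15; unadjusted p = 0.0371). Without vehicle replicate 1 it was -0.23 and without vehicle replicate 2 it was -0.50. Cd3g, the gamma chain, had a mean signal of 3.14 ± 0.15 in the controls and 3.12 ± 0.11 in treated mice (SD, n = 3), and its groups overlapped. Cd247, the zeta chain, read 0.16 higher (SE 0.16), while its other 3 probe sets differed by -0.11, -0.0016 and -0.24. Of the 4 receptor chains, Cd3e and Cd3d thus had separate groups and the others did not.

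The upstream regions of Cd3e and Cd3d are shown because these chains had the most negative differences of the receptor group; both lie in the Cd3 cluster of chromosome 9. Capitals mark AGGAAG (the core of Ets factor sites), TGTGGT (Runx), CACCTG (an E-box) and TGANTCA (AP-1) on either strand, in RefSeq sequence of build GRCm38.p6.
Cd3e promoter, chr9:45009562-45009861, minus strand: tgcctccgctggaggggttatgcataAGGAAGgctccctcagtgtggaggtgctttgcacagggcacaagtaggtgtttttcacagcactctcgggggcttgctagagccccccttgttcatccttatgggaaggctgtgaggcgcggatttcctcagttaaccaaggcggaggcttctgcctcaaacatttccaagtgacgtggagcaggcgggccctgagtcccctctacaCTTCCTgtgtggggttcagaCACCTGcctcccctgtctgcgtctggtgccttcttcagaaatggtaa
Cd3d promoter, chr9:44981536-44981835, plus strand: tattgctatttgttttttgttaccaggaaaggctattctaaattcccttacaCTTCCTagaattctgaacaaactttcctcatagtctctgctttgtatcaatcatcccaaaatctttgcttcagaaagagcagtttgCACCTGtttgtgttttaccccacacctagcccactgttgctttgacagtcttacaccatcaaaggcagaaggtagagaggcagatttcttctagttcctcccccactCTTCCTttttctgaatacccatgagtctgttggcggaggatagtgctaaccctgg
Each of these 300-base windows held AGGAAG at 2 places and CACCTG at 1 place, and neither held TGTGGT or TGANTCA. Of the 40 lymphocyte genes 27 had a promoter in the table. AGGAAG was present in 16 of them (59.3%, against 35.1% of all 27025 promoters), CACCTG in 13 (48.1%, against 20%), TGTGGT in 10 (37%, against 16.9%) and TGANTCA in 1 (3.7%, against 7.93%), and the octamer ATGCAAAT in 0 (1.75% of all). The motifs were picked from a longer set after searching these same promoters. Shares above those of all promoters therefore partly follow from that choice, and no enrichment was tested. A match is a description of the letters and was not set against the arrays.

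Cd4, the coreceptor of helper T cells that myeloid cells can also carry, read 6.39, 6.22 and 6.26 in vehicle and 5.94, 6.13 and 6.14 with OSU-CG5. The groups did not overlap, but the gap was 0.08 and the difference was -0.22 (SE 0.12; limma unadjusted p = 0.102). Its other probe set differed by -0.37 (SE 0.22) and overlapped. Cd8a, the alpha chain of the cytotoxic T cell coreceptor, read 5.71, 5.48 and 5.56 in vehicle and 5.05, 5.34 and 5.34 with OSU-CG5. OSU-CG5 replicate 1 was lowest, and the difference was -0.34 (SE 0.13; unadjusted p = 0.0333). The identifier of that probe set carries a suffix that marks possible binding to other transcripts. The other 4 Cd8a probe sets also read lower, by -0.20, -0.28, -0.43 and -0.05, and the 1 at -0.43 lay wholly below vehicle (SE 0.14; unadjusted p = 0.0120). Cd8b1, the beta chain, was at 3.81 ± 0.05 and 3.73 ± 0.10 (SD, n = 3), with overlap.

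Cd6, an adhesion receptor of T cells, read 5.67, 5.75 and 5.49 in vehicle and 5.30, 5.32 and 5.40 with OSU-CG5. The difference was -0.30 (SE 0.12; limma unadjusted p = 0.0368), with a gap of 0.09 between the groups. Cd7, a surface protein of T and NK cells, read 5.29, 5.17 and 5.29 in vehicle and 4.82, 5.16 and 4.97 with OSU-CG5. Its groups were separated by 0.01 only (difference -0.27, SE 0.13; unadjusted p = 0.0681). The adhesion molecule Cd2 and the inhibitory receptor Cd5 differed by 0.02 and 0.08 (SE 0.12 each), so the surface receptors of this group were not uniformly lower.

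**Figure D3:**
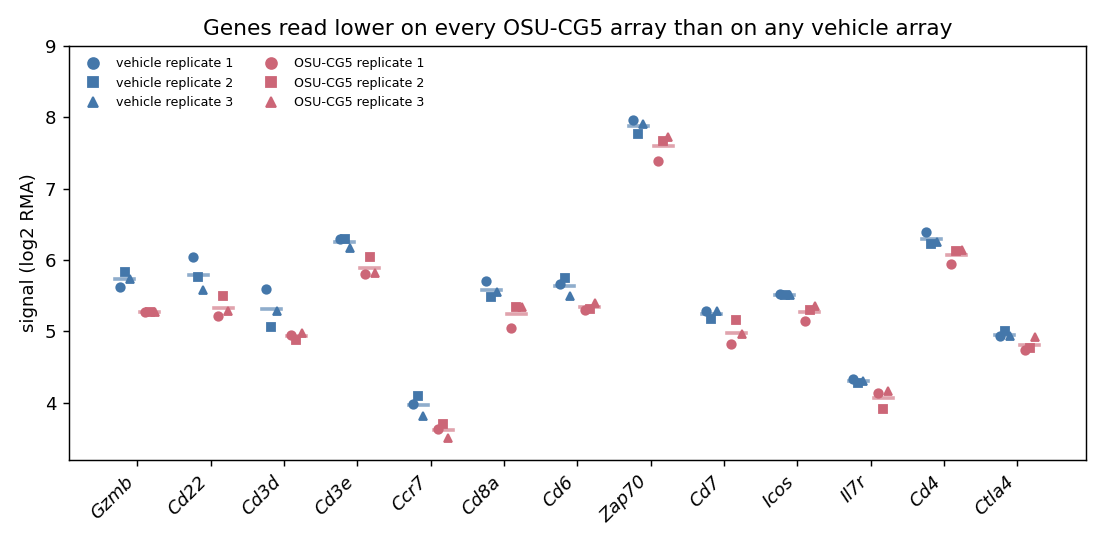
Signal (log2 RMA) of the 13 lymphocyte genes for which every OSU-CG5 array (red) lay below every vehicle array (blue), ordered by the size of the difference; marker shapes give the replicate and short lines the group means. Gzmb shows the widest gap, 0.35, while for Cd7, Ctla4 and Zap70 the groups are 0.01 to 0.03 apart.

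Of the 5 costimulatory and checkpoint receptors, 4 read lower (80%), with a median of -0.15. That share was 65.7% for all genes and 79.4% for those with a mean under log2 6. Of the 5 genes, 2 lay wholly below vehicle (40%, against 14.2% of all genes and 17.8% of those under log2 6). At an unadjusted p under 0.05 in limma there were 0. Icos, an inducible costimulator of activated T cells, read 5.52, 5.51 and 5.51 in vehicle and 5.14, 5.30 and 5.36 with OSU-CG5. Vehicle values were nearly identical and treated values all lower, at a difference of -0.25 (SE 0.11; limma unadjusted p = 0.0576). Its other probe sets differed by -0.15 and -0.22. Ctla4, an inhibitory receptor of activated and regulatory T cells, read 4.94, 5.0 and 4.93 in vehicle and 4.74, 4.77 and 4.92 with OSU-CG5, a difference of -0.15 (SE 0.11; unadjusted p = 0.220) with the groups 0.02 apart. Pdcd1, which encodes the checkpoint receptor PD-1, differed by -0.23 (SE 0.15), Cd27 by -0.02 (SE 0.12) and Cd28 by 0.08 (SE 0.14), and all of these lay below log2 4 with overlapping groups.

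For T cell receptor signalling, Zap70, the kinase recruited to the phosphorylated receptor, read 7.96, 7.76 and 7.91 in vehicle and 7.39, 7.67 and 7.73 with OSU-CG5. OSU-CG5 replicate 1 was the lowest array and the groups were 0.03 apart (difference -0.28, SE 0.13; limma unadjusted p = 0.0715). Without that array the difference was -0.17. Its other probe sets were dimmer and disagreed, with differences of -0.31 (SE 0.16) and 0.03 (SE 0.14). The adaptor Lat differed by -0.04 (SE 0.12) with overlap.

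All 3 measured cytokine and homing receptors read lower, as did 65.7% of all genes and 79.4% of those under log2 6. Of the 3 genes, 2 lay wholly below vehicle (66.7%, against 14.2% of all genes and 17.8% of those under log2 6). Ccr7, which guides naive lymphocytes and dendritic cells to lymph nodes, read 3.98, 4.09 and 3.82 in vehicle and 3.64, 3.70 and 3.51 with OSU-CG5. Each treated array was below each vehicle array, at a low signal, with a difference of -0.35 (SE 0.12; limma unadjusted p = 0.0223). Il7r, the interleukin-7 receptor that sustains naive and memory T cells, read 4.33, 4.28 and 4.31 in vehicle and 4.14, 3.91 and 4.17 with OSU-CG5 (difference -0.23, SE 0.12; unadjusted p = 0.0863), and differed by -0.15 without OSU-CG5 replicate 2. Its dimmer probe set differed by -0.30 (SE 0.16), with overlap. Il2rb, a chain shared by the interleukin-2 and interleukin-15 receptors, differed by -0.05 (SE 0.18), and its other probe set by -0.31 (SE 0.14).

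Gzmb had the smallest p of the lymphocyte genes. Among the 7 cytotoxic and NK genes measured, 5 read lower (71.4%), with a median of -0.12. That share was 65.7% for all genes and 79.4% for those under log2 6. Gzmb was the 1 gene lower at an unadjusted p under 0.05 (14.3%, against 8.43% of all genes and 9.85% of those under log2 6). It was also the 1 that lay wholly below vehicle (14.3%, against 14.2% of all genes and 17.8% of those under log2 6). Gzmb, which encodes the granule protease granzyme B, read 5.63, 5.84 and 5.74 in vehicle and 5.27 on all 3 OSU-CG5 arrays. The gap of 0.35 between the groups was the widest of all 37 genes, and the difference was -0.47 (SE 0.11, 1.38-fold, 95% interval -0.72 to -0.21; limma unadjusted p = 0.00303, adjusted p = 0.161). Over the alternatives it ranged from -0.52 to -0.39, with adjusted p of 0.0737 to 0.457. Its upstream region is given as that of the gene with the largest difference, with the same marking.
Gzmb promoter, chr14:56262285-56262584, minus strand: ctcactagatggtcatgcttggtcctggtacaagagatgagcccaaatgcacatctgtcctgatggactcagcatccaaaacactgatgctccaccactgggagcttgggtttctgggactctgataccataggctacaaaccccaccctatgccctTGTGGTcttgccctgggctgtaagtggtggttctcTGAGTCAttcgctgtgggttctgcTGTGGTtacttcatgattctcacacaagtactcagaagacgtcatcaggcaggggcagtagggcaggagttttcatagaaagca
This window held TGTGGT at 2 places and TGANTCA at 1, and was the only 1 of the 27 lymphocyte gene promoters with TGANTCA.

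The other granule genes did not show a difference of this size. Gzma and Gzmk, further granzymes, differed by -0.15 (SE 0.14) and -0.12 (SE 0.12). Prf1, which encodes the pore-forming protein perforin, differed by 0.04 (SE 0.18), with a 95% interval of -0.37 to 0.45. Nkg7, a granule membrane protein, differed by -0.18 (SE 0.17). The NK receptor gene Ncr1 read 4.30, 4.33 and 4.32 in vehicle and 4.44, 4.22 and 4.25 with OSU-CG5, on both sides of the controls (difference -0.01, SE 0.11, 95% interval -0.27 to 0.25). Klrd1, which encodes the NK receptor subunit CD94, read 5.44, 4.35 and 5.74 in vehicle and 5.83, 5.23 and 5.36 with OSU-CG5. It had the widest spread of the list, with vehicle replicate 2 far below the other arrays, and differed by 0.29 (SE 0.34).

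None of the 3 transcription factor genes passed an unadjusted p under 0.05 or had separate groups. Gata3, which directs helper T cell development and is also made by prostate epithelium, read 8.22, 8.25 and 8.34 in vehicle and 8.51, 8.48 and 8.18 with OSU-CG5. The treated arrays lay on both sides of the controls, at a difference of 0.12 (SE 0.13; limma unadjusted p = 0.397), which was 0.055, 0.071 and 0.22 without OSU-CG5 replicate 1, 2 and 3. Tbx21, the T-bet gene of cytotoxic and type 1 helper cells, differed by -0.27 (SE 0.14). Foxp3, the factor of regulatory T cells, differed by -0.03 (SE 0.18).

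Of 6 B cell genes 5 read lower (83.3%), with a median of -0.11. That share was 65.7% for all genes and 79.4% for those with a mean under log2 6. Of the 6 genes, 1 was lower at an unadjusted p under 0.05 (16.7%, against 8.43% of all genes and 9.85% of those under log2 6). Wholly below vehicle lay 1 (16.7%, against 14.2% of all genes and 17.8% of those under log2 6). Cd22, an inhibitory coreceptor of B cells, read 6.04, 5.76 and 5.58 in vehicle and 5.21, 5.50 and 5.28 with OSU-CG5. The groups were 0.08 apart, and the difference was -0.46 (SE 0.15, 1.38-fold; limma unadjusted p = 0.0152, adjusted p = 0.220). Its other, dim probe set differed by -0.16 (SE 0.17), with overlap. Cd79a, the alpha signalling chain of the B cell receptor, read 4.50, 4.52 and 4.26 in vehicle and 4.08, 4.32 and 4.42 with OSU-CG5 (difference -0.15, SE 0.14; unadjusted p = 0.305). Without OSU-CG5 replicate 1 it was -0.052 and without vehicle replicate 3 it was -0.23. Ms4a1, which encodes CD20, read 5.03, 4.42 and 5.50 in vehicle and 5.12, 4.85 and 5.06 with OSU-CG5. The vehicle mice enclosed all treated mice, and the difference was 0.03 (SE 0.25, 95% interval -0.54 to 0.59), turning to -0.26 without vehicle replicate 2. The B lineage factor Pax5 differed by -0.41 (SE 0.19), with OSU-CG5 replicate 3 at 4.40 among the controls, and its other probe set by -0.12 (SE 0.13). Cd79b and the kinase gene Blk differed by -0.01 (SE 0.23) and -0.06 (SE 0.12).

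Over the arrays, the mean of the 37 genes was 4.79, 4.68 and 4.78 in vehicle and 4.56, 4.63 and 4.64 with OSU-CG5. Vehicle replicate 1 held the highest value for 14 genes and vehicle replicate 2 for 10, and OSU-CG5 replicate 1 held the lowest for 12. Vehicle replicate 2 was thus high for some genes, and it was also the lowest array for 7. The 12 genes with several probe sets had 19 further ones, of which 16 read lower and 3 higher. Of the 19, 1 was lower at an unadjusted p under 0.05 in limma and 2 lay wholly below vehicle. Over all probe sets 60.5% read lower, 6.8% did so at that threshold and 11.9% lay wholly below vehicle. The further probe sets were thus not above all probe sets at that threshold or in separation.

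Other genes of the same cells are set beside all genes. Of the other T cell genes 5, and of the other cytotoxic and NK genes 3, had a mean of at least log2 6. Below that level 79.4% of all genes read lower (median -0.13), 9.85% at an unadjusted p under 0.05, and 17.8% lay wholly below vehicle. Over all genes 65.7% read lower, 8.43% did so at an unadjusted p under 0.05 and 14.2% lay wholly below vehicle. Of 21 other T cell genes 20 read lower (95.2%, median -0.19), 3 at that threshold (14.3%) and 4 wholly below vehicle (19%). Thy1, a surface protein of T cells and also of stromal cells, read 6.69, 6.97 and 7.01 in vehicle and 6.60, 6.57 and 6.32 with OSU-CG5 (difference -0.39, SE 0.14; limma unadjusted p = 0.0224). Of 18 other cytotoxic and NK genes 16 read lower (88.9%, median -0.14), but 1 at that threshold (5.56%) and 2 wholly below vehicle (11.1%) were no more than the shares of all genes, with the chemokine Ccl5 at -0.24 (SE 0.14). Of 18 other B cell and plasma cell genes 12 read lower (66.7%, median -0.09), 2 at that threshold and 2 wholly below vehicle (11.1% each), close to all genes. The immunoglobulin heavy chain gene Ighm differed by 0.13 (SE 0.26), with OSU-CG5 replicate 2 at 8.29 against 7.11 to 7.79 elsewhere, and by -0.15 without that array. Of 12 lymphocyte chemokine and lymphoid stroma genes 8 read lower (66.7%) and 0 passed that threshold in limma in either direction. Cxcl13, which attracts B cells, differed by -0.27 (SE 0.19), by -0.46 without OSU-CG5 replicate 1 and by -0.077 without OSU-CG5 replicate 2.

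In the wider T cell signalling pathway 14 of 20 genes read lower (70%, median -0.10), near the 65.7% and -0.09 of all genes. Of the 20 genes, 2 lay wholly below vehicle (10%, against 14.2% of all genes) and 1 wholly above (5%, against 8.1%). At an unadjusted p under 0.05 the pathway held 3 lower genes (15%, against 8.43% of all genes) and 1 higher (5%, against 5.4%). The gene that was higher, Cblb, encodes a ubiquitin ligase that restrains T cell activation and is made by many cell types. It read 7.10, 5.82 and 7.34 in vehicle and 7.98, 8.04 and 7.84 with OSU-CG5, a difference of 1.20 (SE 0.35; limma unadjusted p = 0.00811, adjusted p = 0.190). Vehicle replicate 2 was the lowest of its arrays, and without it the difference was 0.73 (SE 0.14, limma adjusted p = 0.0477). In that fit 400 probe sets passed the adjusted threshold, 379 of them higher, so passing there was not particular to Cblb. Without any 1 of the other arrays the difference was 1.15 to 1.49, with limma adjusted p of 0.0656 to 0.457. The 3 lower genes were Pik3cd, a phosphoinositide kinase subunit of leukocytes (-0.40, SE 0.17), Csk (-0.45, SE 0.13) and Prkcq (-0.33, SE 0.14). Csk and Prkcq were the 2 wholly below vehicle, and both had a mean under log2 6. Malt1 differed by 0.34 (SE 0.16). Ptprc, which encodes the leukocyte surface phosphatase CD45 and was singled out after its values were seen, read 6.97, 7.04 and 7.30 in vehicle and 7.43, 7.29 and 7.09 with OSU-CG5 (difference 0.16, SE 0.14). Its groups overlapped, and its 95% interval of -0.16 to 0.49 also held lower values. As 1 gene picked afterwards, Ptprc does not describe leukocyte genes in general.

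Markers of several other cell types also read lower, though no probe set passed limma's adjusted test. Of 10 endothelial genes 3, and of 10 skeletal muscle genes 2, had a mean of at least log2 6. Below that level 79.4% of all genes read lower, 9.85% at an unadjusted p under 0.05, and 17.8% lay wholly below vehicle. Over all genes 65.7% read lower, 8.43% did so at an unadjusted p under 0.05 and 14.2% lay wholly below vehicle. Of 22 macrophage and antigen-presenting cell genes 20 read lower (90.9%, median -0.37), 11 at an unadjusted p under 0.05 (50%) and 12 wholly below vehicle (54.5%), and their mean was 7.10 to 7.35 on the vehicle arrays and 6.71 to 7.01 on the OSU-CG5 arrays. Endothelial genes read lower in 10 of 10 (mean 5.76 to 5.94 and 5.24 to 5.51), 8 at that threshold (80%) and 7 wholly below vehicle (70%). Skeletal muscle genes read lower in 10 of 10 (5.11 to 5.74 and 4.48 to 5.01), 7 at that threshold (70%) and 5 wholly below vehicle (50%). Granulocyte and mast cell genes read lower in 13 of 13 (4.75 to 4.87 and 4.52 to 4.66), in a range where 79.4% of all genes with a mean under log2 6 did, but 1 of 13 (7.69%) was lower at that threshold and 1 lay wholly below vehicle, no more than the shares of all genes. Prostate epithelial genes read lower in 8 of 10 (80%), 1 at that threshold (10%) and 1 wholly below vehicle (10%). RMA gives no value of 0, so no defining gene of these lists was at 0. The part of these cells in the lymphocyte values was not tested.

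**Figure D4:**
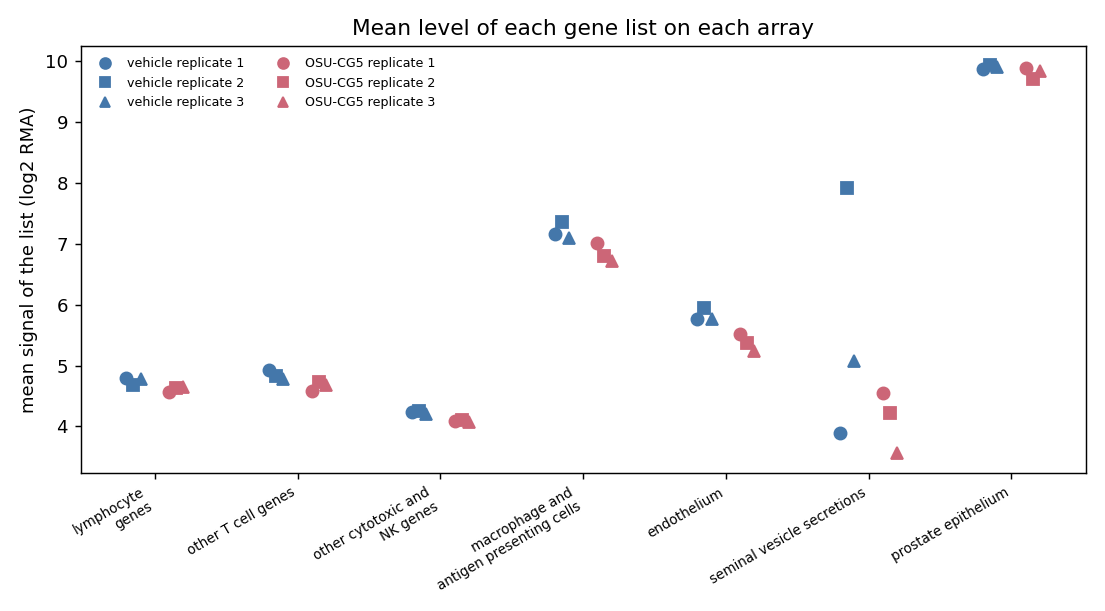
Mean signal (log2 RMA) of each gene list on each array, with vehicle in blue, OSU-CG5 in red and marker shapes for replicates. The lymphocyte genes lie between 4.68 and 4.79 in vehicle and between 4.56 and 4.64 with OSU-CG5, the macrophage and endothelial lists are also lower in all treated mice, and the seminal vesicle list reaches 7.91 in vehicle replicate 2.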

How the data were processed

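Expression was measured on 6 Affymetrix arrays, 1 per mouse, 3 per group. The authors deposited log2 signals made with RMA, per the submitters' processing notes, and the RMA software is not given in the sources used here. RMA brings the arrays to nearly the same distribution, so a broad shift in 1 direction is partly removed. Groups follow the source label; the descriptions of some treated samples carry another number after the compound's prefix. Replicate numbers only name mice.

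Of 45101 rows, 64 controls were removed. Of the remaining 45037 probe sets 34945 had a single symbol in the platform annotation, 932 several and 9160 none; 34741 gene numbers matched RefSeq and 0 symbols changed. Genes were read from the probe set of highest mean. All probe sets were fitted with limma 3.58.1 (lmFit, eBayes; R 4.3.3), with Benjamini-Hochberg adjustment at 0.05; SE is moderated and SD is over 3 arrays. The fit was checked on simulated data with known changes. Counts at an unadjusted p under 0.05 and of groups without overlap are descriptive, and p-values adjusted over the list were not computed.

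Genes described in full had a mean of at least log2 6, an unadjusted p under 0.05 or groups without overlap, or were Cd3e, Cd4, Cd8a, Cd79a, Ms4a1 and Ncr1. Of the comparison lists, examples came from the 3 genes of smallest p that reached log2 6 on average, not all of which are shown. Csk, Prkcq, Ptprc, Pbsn and Msmb were named outside that rule. The members and lists were chosen with earlier results of these data known, and the motifs were picked from a longer set after searching these promoters; where a gene had several promoters the one listed first was searched. Protein sequences were not used here. The number of arrays limits the precision.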

Additional observations from a re-analysis of the deposited data

How the results depend on the processing

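No paired analysis was possible because the labels give the mice no numbers shared between groups. The 16 alternatives were 2 filters on low signal, 3 scalings, 3 variance models, 2 rules for the probe set of a gene and each array left out in turn. The count of probe sets past limma's adjusted threshold was 822 with array weights and ran from 0 to 885 over the fits without 1 array each (400 without vehicle replicate 2 and 885 without vehicle replicate 3), and was 0 in the other alternatives; 0 lymphocyte genes passed in any of the 16. The count of lymphocyte genes lower at an unadjusted p under 0.05 was 7 with all arrays (8.43% of all genes). It was 1 with a mean of at least log2 6, where only 4 genes are left (5.69% of all genes), and 3 with cyclic loess (6.86%). Without 1 array each it was 2 to 6, with 2 to 5 of the 7 among them (4.16% to 11.7% of all genes). The count wholly below vehicle, 13 with all arrays, was 3 of the 4 genes left with the log2 6 filter (75%, against 10.9% of all genes). It was 7 with cyclic loess (18.9%, against 12.2% of all genes). Without 1 array each it was 14 to 17 (37.8% to 45.9%, against 18% to 26.9% of all genes), where fewer arrays make separation easier. The count wholly above vehicle was 1 with cyclic loess (Cd5), where 8.1% of all genes lay above. It was 0 to 1 without 1 array each, where 9.84% to 14.2% of all genes did. The median stayed below 0, from -0.25 to -0.05. Ncr1 turned to 0.050 with repeated quantile normalization and 0.086 with cyclic loess, and ran from -0.081 to 0.029 over the fits without 1 array each, turning to 0.029 and 0.015 without OSU-CG5 replicate 2 or 3. Ms4a1 turned to -0.11 with array weights and ran from -0.26 to 0.28 over the fits without 1 array each, turning to -0.028, -2.7e-05 and -0.26 without OSU-CG5 replicate 1, OSU-CG5 replicate 3 or vehicle replicate 2. The other 15 genes described in full kept their direction in every alternative that measured them. Unless stated, the cause was not tested.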
